A study of Mus musculus with 12 samples.

Results

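Macrophages take up fatty acids and lipoproteins through a small set of receptors, a secreted lipase, acyl-CoA synthetases that trap fatty acids at membranes and binding proteins that carry them inside the cell. The transcripts of 10 genes of this system, *Cd36*, *Msr1*, *Scarb1*, *Lrp1*, *Vldlr*, *Lpl*, *Fabp4*, *Fabp5*, *Slc27a1* and *Slc27a4*, were followed in bone marrow-derived macrophages (BMDMs) after stimulation of the β2-adrenergic receptor (B2AR). The genes were chosen by symbol, for their known roles in uptake, among the 53379 genes of the count table. Each symbol was matched to 1 Ensembl identifier in GENCODE M21, and all 10 were among the 12386 genes left for testing once edgeR's filter had removed genes with few counts.

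BMDMs came from bone marrow of 4 C57Bl/6J mice, grown for a week in medium with serum and L929 cell-conditioned medium, a source of macrophage colony-stimulating factor. According to the methods the mice were adult males, and no engineered allele is named for them. Cultures of each animal received no drug or 1 μM fenoterol, a B2AR-selective agonist, for 1 h or 4 h, so that the 3 groups held 4 libraries each and the same mouse number marked the same animal. Fenoterol is a drug given to cells in culture here, so the groups model receptor stimulation and not nerve-derived noradrenaline in a tissue. The total count per library was 14580533 to 24153284, and the biological coefficient of variation over all genes was 0.112. The 10 genes together took 0.451% to 0.605% of an untreated library's counts and 0.339% to 0.411% of those at 4 h, with a highest share of 0.687% at 1 h.

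The identity of the cells and their response were checked on other genes. All 10 macrophage markers, among them *Adgre1*, *Csf1r* and *Lyz2*, were detected in every group, with a summed level of 708220 to 858652 normalized counts per library over all 3 groups. The adipocyte genes *Plin1*, *Lep*, *Cidec* and *Cfd* had no count in any library, and the 6 adipocyte markers summed to at most 1.34 normalized counts, so adipocyte transcripts were at or near 0 where *Lpl*, *Fabp4* and *Cd36*, which fat cells also express, were measured. Lymphocyte markers summed to 0.964 to 6.26 normalized counts and dendritic cell markers to 7.40 to 39.8. Of the CREB-responsive genes, *Nr4a1* rose with a log2 fold change of 5.16 at 1 h and 1.03 at 4 h and *Dusp1* with 4.18 and 1.89. RNA was taken from whole cultures, in which fewer cells of a type and less RNA per cell cannot be told apart.

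The uptake genes moved in different directions and at different times. At 1 h the scavenger receptor genes *Cd36* and *Msr1* rose, by 1.29-fold and 1.28-fold. At 4 h neither was called, while *Lpl*, which encodes lipoprotein lipase, fell to a level 2.21-fold below that of untreated BMDMs. *Fabp4*, *Scarb1* and the sparsely counted *Vldlr* fell as well at 4 h, and the fatty acid transport genes *Slc27a1* and *Slc27a4* rose. These calls come from a fit without the mouse as a block. In a fit with it, which compares cultures of the same mouse, *Lpl* and *Fabp5* were also called as higher at 1 h. *Fabp5* was called as higher at 4 h too in that fit.

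By edgeR's quasi-likelihood test with Benjamini-Hochberg adjustment over all tested genes and a threshold of 0.05, 2 of the 10 genes were called at 1 h, both higher. Of all genes tested, 20.1% were called at 1 h, 10.0% as higher and 10.1% as lower. At 4 h 6 of the 10 were called, 2 higher and 4 lower, where the share of all genes was 40.0% (19.7% higher, 20.4% lower). Between 1 h and 4 h, 7 of the 10 were called, 1 higher and 6 lower at 4 h, against 38.5% of all genes (18.7% higher, 19.8% lower). The median log2 fold change of the 10 genes was 0.16 at 1 h, -0.18 at 4 h and -0.50 between 1 h and 4 h, where that of all tested genes was 0.00, 0.00 and 0.01. When the mouse entered the fit as a block, 4 of the 10 were called at 1 h, all higher, with *Lpl* and *Fabp5* gained, against 27.0% of all genes (13.3% higher, 13.7% lower). In that fit 7 were called at 4 h (3 higher, 4 lower) against 47.4% of all genes, and 9 between 1 h and 4 h (2 higher, 7 lower) against 46.6%. These counts describe 10 chosen genes. All 3 comparisons draw on shared libraries, so their counts are not independent.

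When libraries were scaled by library size alone, the share of called genes that were higher moved from 49.8% to 32.5% at 1 h and from 48.6% to 65.7% between 1 h and 4 h, and the median of all genes shifted by -0.07 and 0.09. Of the calls of the uptake genes, the rise of *Cd36* at 1 h and the difference in *Vldlr* between 1 h and 4 h were not called under this scaling, and all kept their direction.

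**Figure D1:**
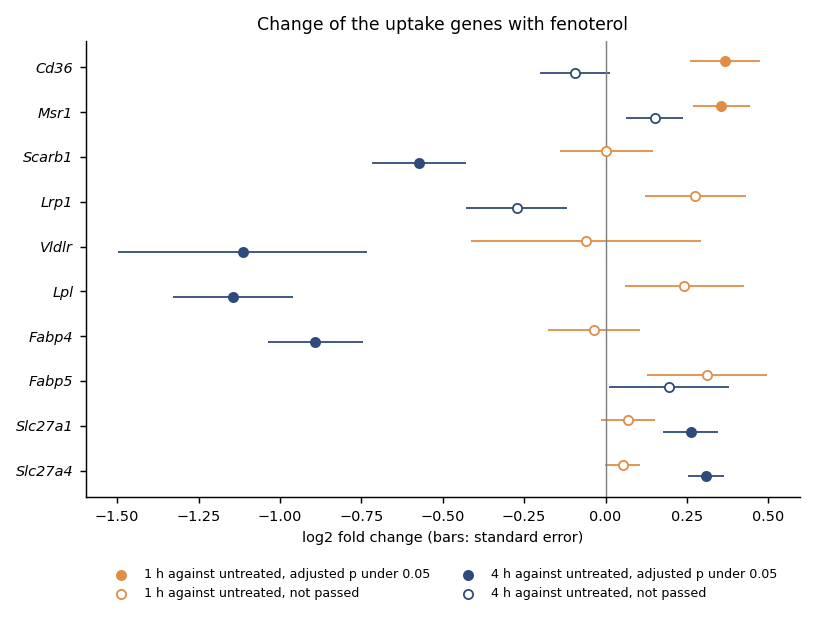
Log2 fold change of each uptake gene (rows) after 1 h (orange) and 4 h (blue) of fenoterol against untreated BMDMs, with bars for the standard error of the edgeR fit over 12 libraries. Filled points passed the threshold and open points did not. At 1 h only *Cd36* and *Msr1* are filled, both to the right of 0, and at 4 h *Lpl*, *Vldlr*, *Fabp4* and *Scarb1* are filled to the left and *Slc27a1* and *Slc27a4* to the right.

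Levels in untreated BMDMs spanned a wide range. Compared per length of all annotated exons, as TMM-scaled CPM per kb, *Cd36* was highest (375 ± 47.1, SD, n = 4), followed by *Lpl* (212 ± 44.3) and *Lrp1* (52.4 ± 9.47), with no overlap between neighbours over the 4 mice. *Slc27a1* (31.9 ± 1.84), *Msr1* (31.5 ± 2.52) and *Fabp5* (27.6 ± 4.89) came next with overlapping ranges. *Slc27a4* (14.5 ± 0.624) and *Scarb1* (14.5 ± 2.30) also overlapped, *Fabp4* reached 4.32 ± 0.339, and *Vldlr* was lowest at 0.117 ± 0.0198.

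For several genes all annotated exons were much longer than the longest principal transcript, such as *Fabp4* (4489 against 896 bases), *Scarb1* (8500 against 2521) and *Lpl* (10478 against 4115). The length of that transcript was therefore used as a second scale, chosen after seeing the data. On that scale *Lpl* (539 ± 113 CPM per kb) and *Cd36* (396 ± 49.8) overlapped at the top, and *Msr1* (140 ± 11.2) and *Fabp5* (99.7 ± 17.7) came before *Slc27a1* (66.6 ± 3.85) and *Lrp1* (62.4 ± 11.3). *Scarb1* (48.9 ± 7.75), *Fabp4* (21.7 ± 1.70) and *Slc27a4* (15.8 ± 0.679) followed. *Lpl* and *Cd36* led and *Vldlr* was last on both scales, while the order of *Lpl* against *Cd36* and of the genes in between depended on the length used.

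**Figure D2:**
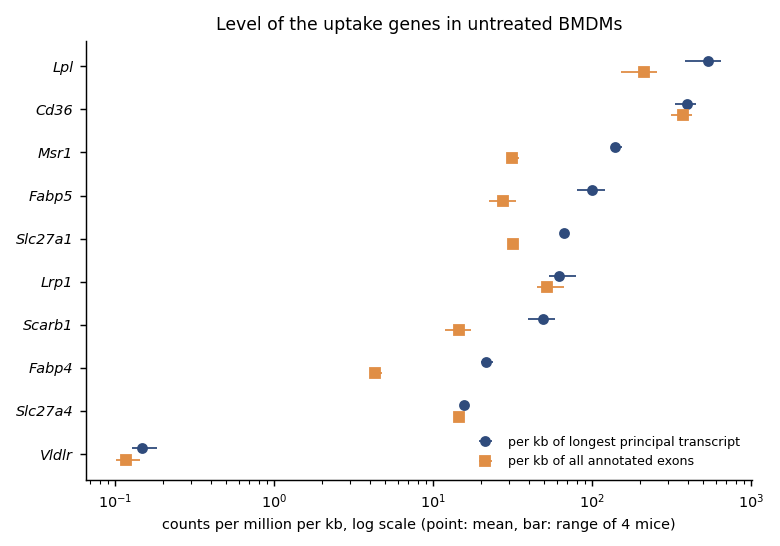
Level of each uptake gene in untreated BMDMs in CPM per kb on a log axis, per length of the longest principal transcript (blue circles) and of all annotated exons (orange squares), as the mean with the range of 4 mice. *Lpl* and *Cd36* lie near the top of the axis, 7 genes lie between, and *Vldlr* lies below 1 on both scales.

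B2AR signals through cyclic AMP and protein kinase A to CREB, so promoters of the uptake genes were searched for its site. RefSeq promoters of GRCm38.p6 were matched for 5 of the 10 genes, *Cd36*, *Lrp1*, *Vldlr*, *Slc27a1* and *Slc27a4*, with 8 start sites in all. The 250 bases before each start were searched on both strands for a CRE (TGACGTCA, the full binding site of CREB), its shorter core (TGACG), an E-box (CACGTG), the GC box bound by Sp1 (GGGCGG), the box bound by NF-Y (CCAAT), the element at which many promoters bind TBP (TATAAA) and the NR4A site NBRE (AAAGGTCA). Neither the CRE nor its core was found in any of the 8 promoters, where 1.55% and 17.8% of all 32851 promoters held them, and the NBRE (1.34% of all) was not found either. DR1 (0.0335% of all) was absent too. Motifs as rare as the CRE, the NBRE and DR1 would be absent from most sets of 8 promoters. Genes without a matched promoter, among them *Lpl* and *Fabp4*, were not searched. The absence therefore says little about CREB sites in the uptake genes. GC boxes (32.7% of all promoters) and CCAAT boxes (33.8%) were the letters found most often. An E-box (6.02% of all) was found in a *Slc27a1* promoter, and TATAAA (12.4%) was not found. Shown are promoters of 3 genes that passed the test at different times, *Cd36*, which rose at 1 h, *Slc27a4*, which rose at 4 h, and *Vldlr*, which fell at 4 h, each 5′ to 3′ on the strand of its gene with matches in capitals.
*Cd36*, chr5:17835897-17836146, minus strand: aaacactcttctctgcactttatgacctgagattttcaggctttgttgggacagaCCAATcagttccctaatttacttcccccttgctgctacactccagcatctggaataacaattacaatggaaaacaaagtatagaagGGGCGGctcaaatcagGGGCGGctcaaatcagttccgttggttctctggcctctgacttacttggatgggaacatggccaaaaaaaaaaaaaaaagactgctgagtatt
*Slc27a4*, chr2:29802384-29802633, plus strand: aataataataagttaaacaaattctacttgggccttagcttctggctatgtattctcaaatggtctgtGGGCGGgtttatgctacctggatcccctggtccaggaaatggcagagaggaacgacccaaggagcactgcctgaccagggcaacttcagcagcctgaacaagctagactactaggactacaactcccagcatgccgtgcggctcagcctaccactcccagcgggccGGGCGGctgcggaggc
*Vldlr*, chr19:27216234-27216483, plus strand: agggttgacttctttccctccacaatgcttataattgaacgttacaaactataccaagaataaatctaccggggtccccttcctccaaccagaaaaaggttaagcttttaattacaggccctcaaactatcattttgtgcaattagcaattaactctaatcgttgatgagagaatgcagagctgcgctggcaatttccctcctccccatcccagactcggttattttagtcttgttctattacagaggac
The capitals in *Cd36* mark a CCAAT box and 2 GC boxes, and those in *Slc27a4* mark 2 GC boxes. The *Cd36* start lies inside the span of the gene, between exons of longer transcripts, and none of the 3 windows overlaps an annotated exon. None of the motifs searched was found in this *Vldlr* window. A second *Vldlr* start in the table, at position 27217020, has a GC box and a CCAAT box in its window, which overlaps an annotated exon and is not printed. These matches describe letters in a window and not binding.

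CD36 is a scavenger receptor that binds oxidized low-density lipoprotein and carries long-chain fatty acids across the membrane. Its gene (ENSMUSG00000002944, chr5:17781690-17888801, minus strand, GRCm38) had 28082, 22225, 29821 and 25403 normalized counts in untreated BMDMs of mice 1 to 4. After 1 h of fenoterol the same mice had 39341, 31484, 35173 and 30041. Every 1 h library was above every untreated library, and each mouse was higher at 1 h than untreated. After 4 h the counts were 24012, 21979.5, 23999 and 28966, which overlapped the untreated range.

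The group means of *Cd36* were 26383 ± 3314, 34009.6 ± 4159.6 and 24739 ± 2975 normalized counts (SD, n = 4 each). The log2 fold change was 0.37 (SE 0.11, edgeR adjusted p = 0.0258) at 1 h and -0.09 (SE 0.11, edgeR adjusted p = 0.536) at 4 h, and from 1 h to 4 h *Cd36* fell by 0.46 on the log2 scale (edgeR adjusted p = 0.00368), in all 4 mice and with no overlap. The call of the rise at 1 h was lost with scaling by library size alone (log2 fold change 0.30, adjusted p = 0.0660). It was also lost without mouse 2 (0.29, adjusted p = 0.0849) or mouse 4 (0.35, adjusted p = 0.0634) among the untreated or mouse 1 (0.29, adjusted p = 0.0905) or mouse 3 (0.36, adjusted p = 0.0582) among the 1 h libraries.

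MSR1, scavenger receptor A, takes up acetylated and oxidized lipoproteins. *Msr1* (ENSMUSG00000025044, chr8:39581685-39642673, minus strand) had 3677, 3665, 4328 and 3987 normalized counts in untreated BMDMs, 5063, 4949, 5440.0 and 4567 at 1 h and 4313, 3731, 4242 and 5089.9 at 4 h. All 1 h libraries exceeded all untreated libraries, whereas the 4 h libraries overlapped both other groups. The log2 fold change was 0.35 (SE 0.09, edgeR adjusted p = 0.00949) at 1 h, and this call held under all alternatives run. It was 0.15 (SE 0.09, edgeR adjusted p = 0.194) at 4 h and -0.20 (SE 0.09, edgeR adjusted p = 0.0805) from 1 h to 4 h. The last value was called when the mouse was a block (-0.21, adjusted p = 0.0238) and without mouse 4 among the 4 h libraries (-0.29, adjusted p = 0.0116), the mouse with the highest count at 4 h.

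SR-BI, the product of *Scarb1* (ENSMUSG00000037936, chr5:125277087-125341094, minus strand), is a high-density lipoprotein receptor that exchanges cholesteryl esters and cholesterol with the particle. Normalized counts were 2904, 2377, 2405 and 1969 in untreated BMDMs, 2780.3, 2328, 2487 and 2081 at 1 h and 2156, 1385, 1585 and 1370.2 at 4 h. The order of the mice was the same in each group, with mouse 1 highest and mouse 4 lowest. The highest 4 h library lay above the lowest untreated library, so the groups overlapped, although each mouse was lower at 4 h than untreated. The log2 fold change was 0.00 (SE 0.14, edgeR adjusted p = 0.994) at 1 h and -0.57 (SE 0.14, edgeR adjusted p = 0.00545) at 4 h, and from 1 h to 4 h it was -0.58 (SE 0.14, edgeR adjusted p = 0.00580). Unlike *Cd36* and *Msr1*, this receptor gene was not called at 1 h, and the fall at 4 h was called under all alternatives run.

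**Figure D3:**
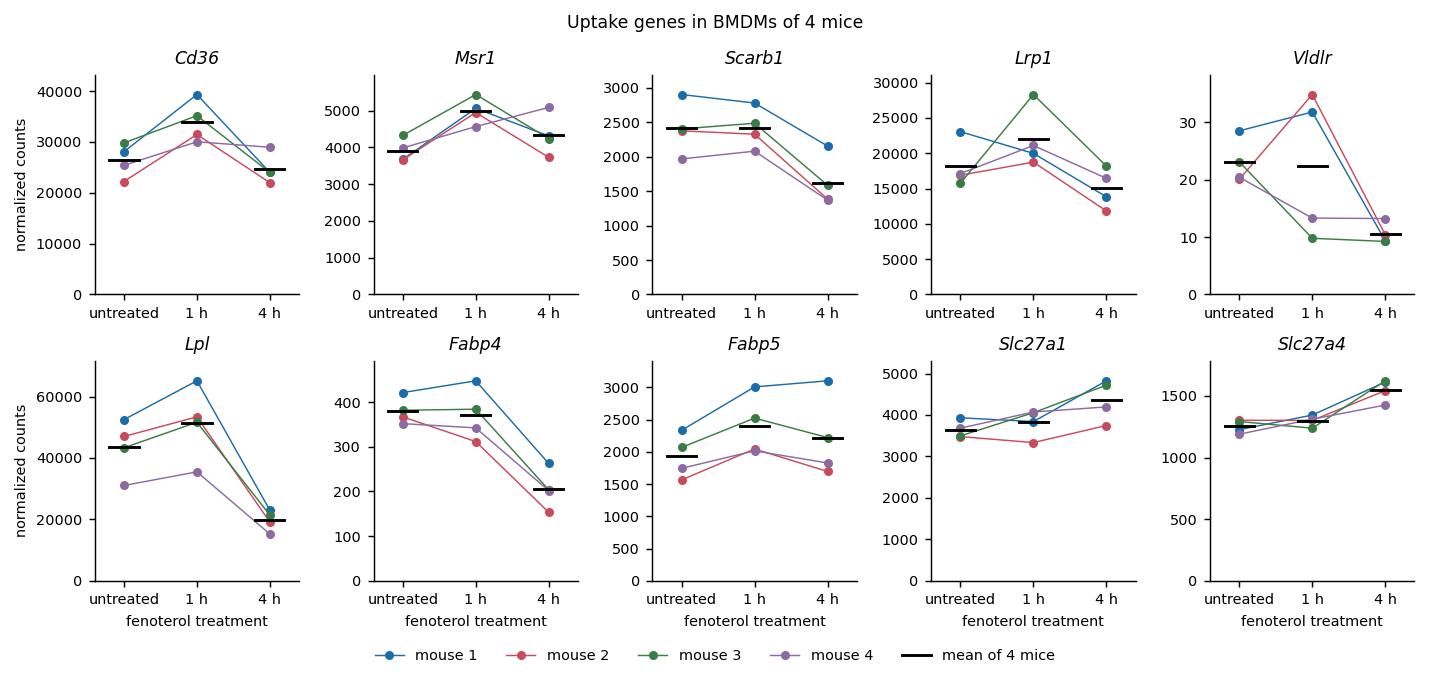
Normalized counts of the 10 uptake genes (panels) in untreated BMDMs and after 1 h and 4 h of fenoterol, on linear axes that start at 0. Each point is 1 library, lines join the libraries of a mouse and horizontal bars mark group means. *Cd36* and *Msr1* have their highest mean at 1 h, *Lpl* and *Fabp4* drop at 4 h in each mouse, and *Slc27a4* is highest at 4 h.

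LRP1 is a large endocytic receptor that clears apolipoprotein E-rich remnants and many other ligands, and VLDLR, of the same family, binds triglyceride-rich particles. *Lrp1* (ENSMUSG00000040249, chr10:127538161-127621148, minus strand) had 23057, 16884, 15761 and 17132 normalized counts in untreated BMDMs, 19979.5, 18745, 28319 and 21099 at 1 h and 13832, 11826, 18180.0 and 16449.7 at 4 h. Mouse 1 stood highest among the untreated libraries and mouse 3 highest among those of 1 h and 4 h. Against untreated BMDMs the log2 fold change was 0.28 (SE 0.15, edgeR adjusted p = 0.258) at 1 h and -0.27 (SE 0.15, edgeR adjusted p = 0.184) at 4 h, so that neither passed the test. Both moved with single libraries. Without mouse 3 at 1 h the first was 0.14, and without mouse 1 untreated it was 0.41. The second was -0.14 without mouse 1 untreated and -0.17 without mouse 2 at 4 h. From 1 h to 4 h *Lrp1* fell by 0.55 on the log2 scale (SE 0.16, edgeR adjusted p = 0.0121), in all 4 mice and with no overlap of the groups. *Lrp1* has a long transcript, and the libraries' median deviation over 1144 genes with at least 10 kb of exons was -0.04 to 0.05 on the log2 scale, where the deviation of *Lrp1* from its group mean was -0.33 to 0.38. These genes were picked by the length of all annotated exons, which can exceed that of a transcript, as for *Lpl* (10478 against 4115 bases). The part of transcript length in the spread of *Lrp1* was not tested.

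*Vldlr* (ENSMUSG00000024924, chr19:27216484-27254231, plus strand) was sparse, with raw counts of 15 to 33 in the untreated libraries, 10 to 31 at 1 h and 9 to 17 at 4 h. Counting error is a large part of each value. Normalized counts were 28.5, 20.1, 23.1 and 20.4 in untreated BMDMs, 31.8, 34.9, 9.80 and 13.3 at 1 h and 9.38, 10.4, 9.25 and 13.2 at 4 h. All 4 h libraries lay below all untreated libraries, and at 1 h mice 1 and 2 lay above and mice 3 and 4 below all untreated libraries. In log2 fold changes *Vldlr* gave -0.06 (SE 0.35, edgeR adjusted p = 0.940) at 1 h, -1.11 (SE 0.38, edgeR adjusted p = 0.0307) at 4 h and -1.05 (SE 0.38, edgeR adjusted p = 0.0425) from 1 h to 4 h. The call at 4 h was lost, with adjusted p up to 0.0875, without mouse 1 or mouse 3 among the untreated or mouse 1, 2 or 3 among the 4 h libraries. The call from 1 h to 4 h was lost in 12 of 20 alternatives, with adjusted p up to 0.151, among them limma-voom, limma-trend and the fits without mouse 2 or 3 untreated, mouse 1 or 2 at 1 h, or mouse 1, 2 or 3 at 4 h.

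Lipoprotein lipase, which macrophages secrete, splits the triglycerides of lipoproteins into fatty acids for uptake. *Lpl* (ENSMUSG00000015568, chr8:68880491-68907448, plus strand) ranked 33 among all genes of untreated BMDMs by normalized count and took 0.162% to 0.269% of a library's counts. The untreated libraries of mice 1 to 4 had 52492, 47002, 43314 and 31034 normalized counts, and those of 1 h had 65135, 53395, 51639 and 35473. Each mouse was higher at 1 h, by 0.18 to 0.31 on the log2 scale, but mice differed more than this and the groups overlapped. At 4 h the counts were 22964, 19099, 21390.1 and 15212, and every 4 h library was below every other library.

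Group means of *Lpl* were 43460.5 ± 9102, 51410.4 ± 12198 and 19666 ± 3367 normalized counts (SD, n = 4 each). At 1 h the log2 fold change was 0.24 (SE 0.18, edgeR adjusted p = 0.421), and it was 0.11 without mouse 1 at 1 h, 0.12 without mouse 4 untreated and 0.39 without mouse 4 at 1 h. With the mouse as a block, which compares each culture with that of the same animal, it was 0.24 and was called (adjusted p = 0.00234). At 4 h *Lpl* fell by 1.14 on the log2 scale (SE 0.18, edgeR adjusted p = 0.000164), with a change of -1.30 to -1.02 in single mice. From 1 h to 4 h the log2 fold change was -1.39 (SE 0.19, edgeR adjusted p = 3.96e-05), with -1.50 to -1.22 in single mice. Both calls held under all alternatives run. At 4 h *Lpl* took 0.0809% to 0.119% of the counts.

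The genes whose 8 changes (4 mice, 1 h and 4 h, each against the same mouse untreated) were closest to those of *Lpl* among 10288 genes were *Tmem135*, *Tbc1d1* and *Mmp13*. Their root mean square differences from *Lpl* were 0.107, 0.112 and 0.121 on the log2 scale, and 112 genes lay within 0.3. Their log2 fold changes were 0.19, 0.19 and 0.27 at 1 h and -1.09, -1.04 and -1.02 at 4 h. For *Vldlr* the closest were *Rp2* (0.438), *Ap1s2* (0.447) and *Hacd4* (0.452), and no gene lay within 0.3.

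Fatty acid-binding proteins carry fatty acids through the cytosol, and macrophages make FABP4 (aP2) and FABP5 (mal1). *Fabp4* (ENSMUSG00000062515, chr3:10204088-10208576, minus strand) had 421, 367, 382 and 352 normalized counts in untreated BMDMs, 448, 312, 384 and 342 at 1 h and 263, 153, 203 and 202 at 4 h. All 4 h libraries lay below all others, while the 1 h and untreated libraries overlapped. In the fit, *Fabp4* had a log2 fold change of -0.04 (SE 0.14, edgeR adjusted p = 0.913) at 1 h, -0.89 (SE 0.15, edgeR adjusted p = 0.000185) at 4 h and -0.86 (SE 0.15, edgeR adjusted p = 0.000327) from 1 h to 4 h, and the calls that involve 4 h held under all alternatives run.

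*Fabp5* (ENSMUSG00000027533, chr3:10012548-10016607, plus strand), a close neighbour of *Fabp4* on the same chromosome, did not show this drop. Its counts are less certain, since 5.48% of its 50-base stretches also occur in *Gm6166*, *Gm14328* or *Fabp5l2*. Normalized counts were 2335, 1565, 2069 and 1745 in untreated BMDMs, 3008, 2045, 2524 and 2016 at 1 h and 3103, 1696, 2222 and 1827 at 4 h. Each mouse was higher at 1 h and at 4 h than untreated, and the groups overlapped. Without a block, the log2 fold change was 0.31 (SE 0.18, edgeR adjusted p = 0.283) at 1 h, 0.19 (SE 0.18, edgeR adjusted p = 0.438) at 4 h and -0.12 (SE 0.18, edgeR adjusted p = 0.658) from 1 h to 4 h. With the mouse as a block the first value was 0.31 (adjusted p = 0.000607) and the second 0.18 (adjusted p = 0.0192), so both were called in that fit. Without mouse 1 among the 4 h libraries the fitted change at 4 h was -0.01. The difference in change between *Fabp4* and *Fabp5* was not tested.

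FATP1 and FATP4, the products of *Slc27a1* and *Slc27a4*, are acyl-CoA synthetases that promote fatty acid uptake by trapping the acid as its CoA ester. *Slc27a1* (ENSMUSG00000031808, chr8:71568882-71587302, plus strand) had 3931, 3477, 3496 and 3683 normalized counts in untreated BMDMs, 3841, 3334, 4055 and 4071 at 1 h and 4824, 3745, 4719.6 and 4194 at 4 h. Each mouse was higher at 4 h than untreated, but mouse 2 at 4 h lay below mouse 1 untreated. For *Slc27a1* the log2 fold change was 0.07 (SE 0.08, edgeR adjusted p = 0.654) at 1 h, 0.26 (SE 0.08, edgeR adjusted p = 0.0225) at 4 h and 0.19 (SE 0.08, edgeR adjusted p = 0.0863) from 1 h to 4 h. The call at 4 h was lost without mouse 2, 3 or 4 among the untreated or mouse 1 or 3 among the 4 h libraries, with an adjusted p of up to 0.0738. The difference from 1 h to 4 h was called with the mouse as a block (0.19, adjusted p = 0.0110), with scaling by library size alone (0.28, adjusted p = 0.0156) and without mouse 2 at 4 h (0.26, adjusted p = 0.0195).

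*Slc27a4* (ENSMUSG00000059316, chr2:29802634-29817522, plus strand) varied least among the uptake genes, with an SD within groups of 0.0676 on the log2 scale. Normalized counts were 1227, 1303, 1293 and 1189.9 in untreated BMDMs, 1345, 1302, 1239 and 1312 at 1 h and 1613, 1544, 1623 and 1426 at 4 h, and all 4 h libraries were above all others. The log2 fold change was 0.05 (SE 0.05, edgeR adjusted p = 0.582) at 1 h, 0.31 (SE 0.05, edgeR adjusted p = 0.000354) at 4 h and 0.26 (SE 0.05, edgeR adjusted p = 0.00181) from 1 h to 4 h. The calls at 4 h and between the times held under all alternatives run.

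The groups were also compared by whether any of their libraries overlapped. At 1 h 2 of the 10 genes did not overlap with the untreated libraries, where 23.0% of all tested genes did not (11.3% higher, 11.8% lower). At 4 h this was the case for 4 genes (*Vldlr*, *Lpl* and *Fabp4* lower, *Slc27a4* higher), against 37.6% of all genes (18.7% higher, 18.9% lower). Between 1 h and 4 h it was the case for 5 genes (*Cd36*, *Lrp1*, *Lpl* and *Fabp4* lower, *Slc27a4* higher), against 35.9% of all genes (17.7% higher, 18.2% lower). The shares of the 10 genes at 1 h and 4 h were near those of all genes.

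A list of 87 further genes of lipoprotein and fatty acid uptake, drawn up in 6 groups by function, gave the wider setting. Of these, 58 were tested, and 12 were called at 1 h (8 higher, 4 lower) and 34 at 4 h (11 higher, 23 lower), which is 20.7% and 58.6% of them against 20.1% and 40.0% of all genes. With the mouse as a block 18 were called at 1 h (11 higher, 7 lower) and 41 at 4 h (16 higher, 25 lower), against 27.0% and 47.4% of all genes in the same fit. In that fit the lipase regulators and the fatty acid transport genes had 4 calls each at 1 h in place of 2. The median log2 fold change of the 58 genes without the block was 0.01 at 1 h and -0.09 at 4 h.

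Of 13 other scavenger receptor genes tested, 2 were called at 1 h, *Olr1* and *Cxcl16*, both higher, where 20.1% of all genes were called. At 4 h 8 were called, *Olr1* as higher and *Cd68*, *Scarb2*, *Colec12*, *Stab1*, *Stab2*, *Mrc1* and *Scarf1* as lower, against 40.0% of all genes. *Stab2*, a hyaluronan and scavenger receptor gene, fell from 138 ± 45.4 to 43.7 ± 18.6 normalized counts at 4 h, a log2 fold change of -1.66 (SE 0.29, edgeR adjusted p = 0.000309). *Olr1*, which encodes LOX-1, a receptor for oxidized lipoproteins, had raw counts of 0 to 4 in untreated libraries, 7 to 22 at 1 h and 8 to 22 at 4 h, and was called at both times (edgeR adjusted p = 0.00252 and 0.00256). Its fitted log2 fold changes of 3.43 and 3.13 depend on very few untreated reads and are no estimate of its extent. Of the 10 uptake genes, *Cd36* and *Msr1* were called as higher at 1 h together with these receptor genes, and neither was called at 4 h.

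Of 10 other genes tested from the receptor family of LRP1 and VLDLR, 2 were called at 1 h, *Lrp4* higher and *Lrp6* lower, and 8 at 4 h, 4 higher and 4 lower, against 20.1% and 40.0% of all genes. *Lrp4* rose at both times (1.51 and 1.34), and *Lrp8* (1.50) and *Sorl1* (1.15) rose at 4 h. With the mouse as a block *Lrp8* was called at 1 h too (0.42, adjusted p = 0.00855 in place of 0.141). *Lrp6*, which encodes a Wnt co-receptor, fell from 4851 ± 215 to 3903 ± 309.5 normalized counts at 1 h and 2329 ± 124 at 4 h, with log2 fold changes of -0.31 (SE 0.06, edgeR adjusted p = 0.00190) and -1.06 (SE 0.06, edgeR adjusted p = 6.00e-09). *Ldlrad3* fell from 809 ± 112 to 78.5 ± 35.8 normalized counts at 4 h, a log2 fold change of -3.33 (SE 0.22, edgeR adjusted p = 2.37e-08). The family members *Lrp1* and *Vldlr* were on the lower side of 0 at 4 h, *Lrp1* without passing the test. Of 6 chaperone, adaptor and degradation genes of the family, 2 were called at 1 h and 4 at 4 h, beside the same shares of all genes. Among them *Mylip*, which encodes the ubiquitin ligase IDOL that degrades VLDLR, fell with log2 fold changes of -1.46 (SE 0.08, edgeR adjusted p = 3.68e-09) at 1 h and -0.92 (SE 0.08, edgeR adjusted p = 2.80e-07) at 4 h.

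Of 13 lipase regulators and apolipoproteins tested, 2 were called at 1 h and 6 at 4 h, 2 higher and 4 lower. These are 15.4% and 46.2% of them, near the 20.1% and 40.0% of all genes called. *Angptl4*, which encodes an inhibitor of lipoprotein lipase, fell from 93.6 ± 21.6 to 31.5 ± 9.81 normalized counts at 1 h and 36.2 ± 11.2 at 4 h, with log2 fold changes of -1.57 (SE 0.28, edgeR adjusted p = 0.000912) and -1.38 (SE 0.27, edgeR adjusted p = 0.000949). *Sdc1*, a heparan sulfate proteoglycan gene, rose from 649 ± 102 to 1572 ± 329 and 3338 ± 649, with log2 fold changes of 1.27 (SE 0.17, edgeR adjusted p = 5.07e-05) and 2.36 (SE 0.17, edgeR adjusted p = 4.62e-08). *Lipa*, which encodes lysosomal acid lipase, fell at 4 h, its log2 fold change being -1.03 (SE 0.06, edgeR adjusted p = 6.77e-09), and was not called at 1 h (0.04). For *Apoe* the log2 fold changes were -0.13 at 1 h and -0.31 at 4 h (edgeR adjusted p = 0.562 and 0.0760), and the second was called with the mouse as a block (-0.30, adjusted p = 0.00295). At 4 h the transcripts of the lipase and of its inhibitor were both called as lower, and at 1 h the inhibitor's was called as lower. *Lpl* was not called at 1 h without the block, and was called as higher with the mouse as a block (0.24, adjusted p = 0.00234).

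Of 10 other fatty acid transport and binding genes tested, *Acsl3* and *Acsl4* were called as higher at 1 h, and at 4 h *Acsl3*, *Acsl4* and *Cav1* were higher and *Acsl1* lower. The counts of 2 and 4 of 10 are at the shares of all genes called, 20.1% and 40.0%. With the mouse as a block, 4 of the 10 were called at 1 h (3 higher, 1 lower) and 6 at 4 h (5 higher, 1 lower). In that fit 27.0% and 47.4% of all genes were called. *Acsl3*, an acyl-CoA synthetase gene, rose with log2 fold changes of 1.18 (SE 0.08, edgeR adjusted p = 8.92e-08) and 0.67 (SE 0.08, edgeR adjusted p = 1.63e-05). *Cav1*, which encodes caveolin-1, had 17 to 24 raw counts in untreated libraries and 52 to 109 at 4 h, and its log2 fold change was 2.03 (SE 0.28, edgeR adjusted p = 4.38e-05). Of 6 nuclear receptor genes of fatty acids and sterols, *Ppard* was higher and *Rxrb* lower at 1 h, and *Ppard*, *Pparg*, *Rxra* and *Rxrb* were lower at 4 h, which is 2 and 4 of 6 genes against 20.1% and 40.0% of all genes. With the mouse as a block 3 were called at 1 h (1 higher, 2 lower) and 5 at 4 h (1 higher, 4 lower). *Pparg*, whose product is a known regulator of *Cd36*, *Lpl* and *Fabp4* in fat cells and macrophages, fell from 1076 ± 78.2 to 257 ± 67.1 normalized counts at 4 h, a log2 fold change of -2.05 (SE 0.13, edgeR adjusted p = 1.24e-08), after -0.04 (SE 0.12, edgeR adjusted p = 0.889) at 1 h.

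**Figure D4:**
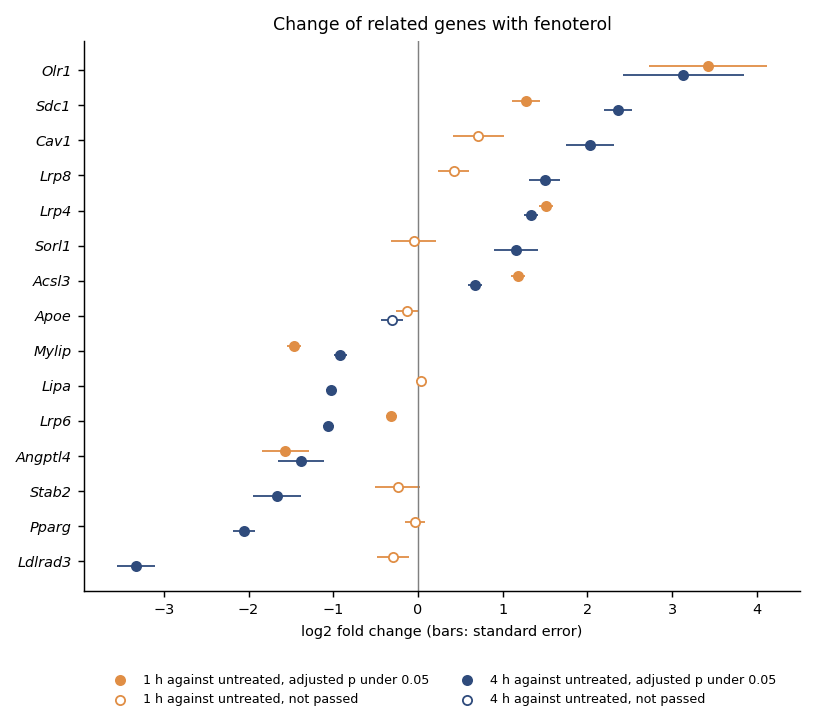
Log2 fold change of 15 named genes related to lipid uptake (rows) after 1 h (orange) and 4 h (blue) of fenoterol against untreated BMDMs, with bars for the standard error of the edgeR fit. Filled points passed the threshold and open points did not. *Sdc1*, *Lrp4* and *Acsl3* are filled to the right of 0 at both times, *Mylip*, *Lrp6* and *Angptl4* to the left at both times, and *Pparg*, *Lipa*, *Stab2* and *Ldlrad3* to the left at 4 h alone. The points of *Olr1* rest on 0 to 4 raw counts in the untreated libraries.

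Genes of other cell types were compared beside these results, since *Cd36*, *Fabp4*, *Fabp5* and *Vldlr* are also made by endothelial cells. The 6 endothelial markers summed to 811 to 1495 normalized counts per untreated library, between 861 and 1677 at 1 h and between 796 and 1250.3 at 4 h, with *Cldn5* at 0 in every library. Of the 4 tested, *Pecam1*, *Kdr* and *Cdh5* were called as higher at 4 h (log2 fold changes of 2.97, 1.22 and 2.19), where 40.0% of all genes were called. The value of *Cdh5* is the least certain, with an SE of 0.40 in the fit with the mouse as a block, against 0.19 for *Pecam1* and 0.16 for *Kdr*. The fourth, *Vwf*, was the most abundant, with 921 ± 335 normalized counts in untreated BMDMs and 622 ± 211 at 4 h. It was lower at 4 h in all 4 mice, with a log2 fold change of -0.58 (SE 0.27, edgeR adjusted p = 0.111), and was called as lower with the mouse as a block (-0.56, adjusted p = 2.39e-05). Without *Pecam1* the markers summed to 771 to 1478 normalized counts in untreated BMDMs and 560.0 to 1094 at 4 h. With the mouse as a block *Kdr* was called as higher at 1 h as well (0.81, adjusted p = 0.00177). None of the tested fibroblast and neutrophil markers, 3 and 5 genes, was called at 1 h or 4 h. Fibroblast markers summed to 421 to 1305 normalized counts per untreated library, between 665 and 1171 at 1 h and between 474 and 1249 at 4 h. Neutrophil markers summed to 434 to 884, 475 to 842 and 438 to 752 in the 3 groups. Of the macrophage markers, 3 were called at 1 h (2 higher, 1 lower) and 8 at 4 h (4 higher, 4 lower), against 20.1% and 40.0% of all genes, among them *Cd14* whose log2 fold change was 2.52, and *Mertk*, at -1.51. The part of these markers in the results was not tested.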

How the data were processed

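RNA-seq was measured in 12 libraries of untreated BMDMs and BMDMs treated with fenoterol, grouped by GEO's labels. Libraries were stranded and poly(A)-selected and were sequenced as single reads of 50 bases. Per the methods, the authors aligned them to GRCm38 with TopHat (2.0.11, per the submitters' processing notes) and made gene counts with HTSeq-count (0.8.0). The authors deposited these counts raw. How HTSeq-count treated strand, and from which annotation, is not given in the sources used here, and antisense or overlapping reads may enter a gene's count where exons overlap, which was the case for 0% of the exon bases of the uptake genes. In the study, counts were normalized with vsn and tested with limma.

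Symbols and coordinates came from GENCODE M21 (53274 of 53379 genes matched). From the deposited counts, genes were filtered with filterByExpr, libraries were scaled by TMM and the quasi-likelihood test of edgeR 4.0.16 in R 4.3.3 was run in a single fit of all 12 libraries, with 3 group means as its terms. Benjamini-Hochberg adjustment covered 12386 genes in each of 3 comparisons, and 0.05 was the threshold. Normalized counts are TMM-scaled to the mean library size, and raw values carry counting error. P-values measure the spread between cultures of 4 mice. Libraries with the same mouse number deviated together from their group means (Pearson's r of 0.290 to 0.561 over 12 pairs, across genes), against -0.304 to 0.0912 for different numbers (36 pairs).

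Genes named were the 10 uptake genes and, of the related lists, those with an adjusted p under 0.05 and a log2 fold change of at least 1 in size, at most 5 a list, with *Pparg*, *Angptl4* and *Apoe*. For 2 genes of these lists results are not reported here, and the counts leave them out. *Cxcl16*, *Acsl1*, *Acsl4* and other members of a count are named with that count, chosen after their values were seen. The uptake genes and lists were chosen with earlier results of these data known. Alternatives were DESeq2 1.42.0, limma-voom and limma-trend (limma 3.58.1, prior count 2), RLE, scaling by library size only, no filter, a mean count of at least 50, the 2 groups alone, the mouse as a block and each library left out. Some of the fits were also run on simulated counts that had no mouse effect. That run says nothing of how the fits handle the pairing of the mice, and no result here rests on it.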

Additional observations from a re-analysis of the deposited data

Results flagged for a closer look

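Changes that differed between the time points by edgeR's quasi-likelihood test (4 h minus 1 h on the log2 scale, adjusted p under 0.05) were drawn from 10 uptake genes, 15 named related genes and 4 genes that check the treatment, and 22 of 29 did, where 38.5% of all tested genes did. The related genes were named mostly for passing the test at 1 h or 4 h, and the 4 were chosen for their response, so this count says nothing of the genes as a group. Of the uptake genes these were *Cd36* (-0.46), *Scarb1* (-0.58), *Lrp1* (-0.55), *Vldlr* (-1.05), *Lpl* (-1.39), *Fabp4* (-0.86) and *Slc27a4* (0.26). *Cd36* was called as higher at 1 h and *Lrp1* at neither time against untreated BMDMs, and the other 5 were called at 4 h. Of the related genes, *Ldlrad3* (-3.03), *Pparg* (-2.02), *Stab2* (-1.42), *Lipa* (-1.06), *Lrp6* (-0.75) and *Acsl3* (-0.51) were lower at 4 h than at 1 h, and *Cav1* (1.32), *Sorl1* (1.21), *Sdc1* (1.09), *Lrp8* (1.08) and *Mylip* (0.55) were higher. Of the genes that check the treatment, *Nr4a1* (-4.13), *Dusp1* (-2.29), *Fos* (-1.23) and *Crem* (-0.79) were lower at 4 h.

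*Angptl4* in the 4 h library of mouse 4 had 19.5 normalized counts, where the other 3 mice had 39.8 to 42.8, a gap of 0.872 of the whole range. It was the only one of 87 groups of 4 libraries to stand apart in this way, and chance gives about 4.35.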

How the results depend on the processing

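Of 627 alternative values of the 10 uptake genes over the 3 comparisons, 578 kept their direction and side of the threshold, 27 lost a call, 8 gained one and 14 changed sign, and none of the values that changed sign was called in either fit. With library size alone as scale, 1 uptake gene was called at 1 h instead of 2, and the log2 fold changes at 1 h became -0.0655 for *Scarb1* and -0.0161 for *Slc27a4*. With the mouse as a replicate block, 4 were called at 1 h, 7 at 4 h instead of 6 and 9 between 1 h and 4 h instead of 7, where 27.0%, 47.4% and 46.6% of all genes were called, and the calls gained are given beside each gene; it changed no other call of these genes. Leaving out 1 library gave 1 to 2 calls at 1 h, 4 to 6 at 4 h and 6 to 8 between 1 h and 4 h, and log2 fold changes of -0.0791 to 0.105 for *Scarb1*, -0.344 to 0.201 for *Vldlr* and -0.137 to 0.0403 for *Fabp4* at 1 h, and for *Fabp5* -0.0113 to 0.303 at 4 h and -0.324 to 0.00985 between 1 h and 4 h. Of the values that were not called, it also moved *Cd36* (-0.18 to -0.04) and *Msr1* (0.07 to 0.22) at 4 h and *Lpl* (0.11 to 0.39), *Fabp5* (0.19 to 0.42), *Slc27a1* (0.04 to 0.13) and *Slc27a4* (0.03 to 0.08) at 1 h by over 1.5 times, and *Lrp1* at 1 h (0.14 to 0.41) and 4 h (-0.38 to -0.14). The cause was not tested. With a mean count of at least 50 *Vldlr* was not among the genes tested and has no value. Counts of all genes called stayed within 1.5 times the values given, with 2100 to 3348 at 1 h, 4463 to 5870 at 4 h and 4209 to 5775 between 1 h and 4 h over all alternatives. Depth limits *Vldlr*, *Olr1* and *Cav1*, and 4 mice limit the size of change that can be called.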

Other observations

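Levels of several uptake genes differed between mice in the same way in each group. Mouse 1 had the highest level in all 3 groups for *Scarb1*, *Lpl*, *Fabp4* and *Fabp5*, 4 of 10 genes, where mouse 1 was highest in all groups for 6.08% of all tested genes and any 1 mouse for 17.3%. Mouse 4 was lowest in all 3 groups for *Scarb1* and *Lpl* (4.29% of all genes). When the mean of each mouse was removed, the SD within groups on the log2 scale fell from 0.321 to 0.0845 for *Lpl*, from 0.312 to 0.0908 for *Fabp5* and from 0.242 to 0.0935 for *Scarb1*. It moved from 0.176 to 0.160 for *Cd36*, from 0.261 to 0.256 for *Lrp1* and from 0.0676 to 0.0668 for *Slc27a4*. These values were noticed in the data and carry no test, and what set the mice apart was not tested.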
